A study of Homo sapiens with 48 samples.

Results

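The genes described are SUPT4H1, SUPT6H, SUPT16H, CDK9, CCNT1, CCNT2, HEXIM1, LARP7, AFF4 and ELL2, which encode elongation factors of RNA polymerase II and the parts of the kinase P-TEFb with its inhibitors and partners. They were chosen by name, as the 10 rows with these symbols among the 19509 genes with counts, together with the splicing events listed for them. All 10 passed the filter on low counts. SUPT5H, the partner of SUPT4H1, is not among them.

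RNA was sequenced from IMR90 cells, an established line of human fetal lung fibroblasts, carrying ER:RAS G12V, an oncogenic HRAS fused to the ligand-binding part of the oestrogen receptor. The fusion is switched on by 4-hydroxytamoxifen (4OHT), and cells given the solvent DMSO carry it without the ligand. After 6 days of either treatment the cells were transfected with a siRNA and kept for 2 more days in medium with 0.5% serum. The study asked what loss of the splicing factors SF3B1 and RBM39 does to cells with and without active RAS.

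The 48 libraries fell into 6 groups of 8, namely DMSO siNT, DMSO siSF3B1, DMSO siRBM39, 4OHT siNT, 4OHT siSF3B1 and 4OHT siRBM39. Every group was made of 2 siRNAs with 4 replicates each: siNT1 and siNT2 (non-targeting), siSF3B1-13 and siSF3B1-16, and siRBM39-06 and siRBM39-08. All groups share the cell line, the fusion and the low serum, so each result holds for this line alone. The methods of the study describe replicates of its cell culture work as separate experiments, and the labels say nothing further on this. For the sequencing after knockdown the methods state fewer replicates than the 4 in the labels, which were followed. For the 4OHT libraries titled siNT2 another label field reads siNT1, which does not change their group.

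Libraries held 31467221 to 52734636 counts, with a median of 39656598. SF3B1 fell from 359 ± 25 to 32.8 ± 1.6 CPM (read counts scaled to the size of the library) in DMSO and from 328 ± 8.3 to 27.3 ± 1.9 in 4OHT after siSF3B1, and RBM39 from 170 ± 9.8 to 27.4 ± 2.2 and from 120 ± 4.3 to 16.3 ± 1.7 after siRBM39 (SD, n = 8). The 6 fibroblast markers summed to between 35073 and 57449 CPM in the DMSO libraries and to between 11394 and 16322 CPM in the 4OHT libraries, and the 3 blood markers to at most 0.196 CPM. The 4 epithelial markers summed to between 27.9 and 134 CPM, nearly all of it KRT18 and KRT5, with EPCAM at most 2.79 CPM and CDH1 at most 0.982. The 2 endothelial markers with a row, of 3 listed, summed to at most 7.98 CPM. One library stood apart: in 4OHT siRBM39-08 replicate 4, 1739 genes differed by over 2-fold from the rest of its group, against at most 108 in any other library, and it held the highest epithelial sum (134 CPM, at most 55.6 in the other 5 groups) and the highest endothelial one. Results for siRBM39 in 4OHT are therefore given with and without it, and the part of these markers in them was not tested.

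Transcribing polymerase II pauses shortly after the start of most genes, held by the factors DSIF and NELF. DSIF is made of SPT4 (SUPT4H1) and SPT5, travels with the polymerase and becomes a positive factor once it is phosphorylated. The phosphorylation comes from P-TEFb, which is the kinase CDK9 bound to cyclin T1 (CCNT1) or cyclin T2 (CCNT2). Most P-TEFb is kept inactive in the 7SK ribonucleoprotein, where HEXIM1 blocks the kinase and LARP7 holds the 7SK RNA. Active P-TEFb is brought to genes by the super elongation complex, whose scaffold is AFF4 and in which ELL2 speeds the polymerase. SPT6 (SUPT6H) and SPT16 (SUPT16H, a subunit of the complex FACT) are histone chaperones that let the polymerase pass through nucleosomes and rebuild them behind it.

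The splicing results turn on a few exons and introns, whose sequences are shown here so that the values given further on can be read against them. They were read from the GRCh37 genome, in which the events were placed by the lengths of the exons and introns around them, and are written 5′ to 3′ on the strand of the gene, with exon bases in capitals and intron bases in lower case. Each exon is shown with the 50 intron bases before it, which hold the 3′ splice site that SF3B1 helps to recognise, and the 20 bases after it. The introns are shown whole with 20 exon bases on either side.

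The first is the 56-nt exon of SUPT4H1 (chr17:56424890-56424945, minus strand), coding over its whole length in 4 of the 5 annotated transcripts that hold it. It is the event with the largest change in inclusion among the 91 that could be tested.
SUPT4H1 56-nt exon: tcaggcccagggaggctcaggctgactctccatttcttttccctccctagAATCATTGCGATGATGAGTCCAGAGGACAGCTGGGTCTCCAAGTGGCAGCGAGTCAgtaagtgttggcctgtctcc

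The second set compares the paired cyclin exons. CCNT1 and CCNT2 are paralogues, and both have a 71-nt exon (chr12:49089542-49089612, minus strand, and chr2:135710211-135710281, plus strand) and a 63-nt exon (chr12:49093561-49093623 and chr2:135700182-135700244) that changed. The 71-nt exons share 55 of 71 bases (77.5%) and the 63-nt exons 44 of 63 (69.8%).
CCNT1 71-nt exon: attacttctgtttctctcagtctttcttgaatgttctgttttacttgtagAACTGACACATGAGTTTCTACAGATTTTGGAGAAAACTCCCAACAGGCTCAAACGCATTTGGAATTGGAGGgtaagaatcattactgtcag
CCNT2 71-nt exon: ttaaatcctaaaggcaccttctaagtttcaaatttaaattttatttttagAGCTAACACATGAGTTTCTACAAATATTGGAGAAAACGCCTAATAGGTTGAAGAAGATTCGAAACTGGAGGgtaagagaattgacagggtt
CCNT1 63-nt exon: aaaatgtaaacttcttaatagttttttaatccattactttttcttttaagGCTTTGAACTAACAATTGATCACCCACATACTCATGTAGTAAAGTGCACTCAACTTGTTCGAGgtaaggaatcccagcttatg
CCNT2 63-nt exon: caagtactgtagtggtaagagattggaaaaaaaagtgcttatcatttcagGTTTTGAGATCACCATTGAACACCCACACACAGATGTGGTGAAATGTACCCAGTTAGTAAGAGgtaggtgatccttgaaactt

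The third set holds a LARP7 exon that was skipped more after both knockdowns in DMSO (chr4:113570691-113570842, plus strand), and 2 short introns that were retained more after siSF3B1, of SUPT6H (chr17:27009875-27009959) and CDK9 (chr9:130550665-130550822), both on the plus strand.
LARP7 152-nt exon: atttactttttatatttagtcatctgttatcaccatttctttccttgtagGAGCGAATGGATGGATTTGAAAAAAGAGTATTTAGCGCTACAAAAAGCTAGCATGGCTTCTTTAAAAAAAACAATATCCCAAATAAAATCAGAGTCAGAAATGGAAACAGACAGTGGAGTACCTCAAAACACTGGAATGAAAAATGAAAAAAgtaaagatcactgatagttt
SUPT6H 85-nt intron: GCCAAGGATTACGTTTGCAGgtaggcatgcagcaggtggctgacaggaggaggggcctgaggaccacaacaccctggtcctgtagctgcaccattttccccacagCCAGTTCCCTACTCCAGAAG
CDK9 158-nt intron: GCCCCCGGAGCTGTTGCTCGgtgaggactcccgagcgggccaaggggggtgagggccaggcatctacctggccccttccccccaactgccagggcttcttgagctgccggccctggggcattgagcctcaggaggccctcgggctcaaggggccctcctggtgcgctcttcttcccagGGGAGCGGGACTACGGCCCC
All of these introns begin with GT and end with AG. Of the exons, those of 63 nt are a multiple of 3 in length, while the 56-nt, 71-nt and 152-nt exons are not.

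In control cells without active RAS the genes lay between 5.32 and 40.2 on a scale corrected for gene length. Mean levels per gene length in DMSO siNT, as cRPKM (reads scaled to gene length in kilobases and to library size, corrected by the authors for mappability), were 40.2 ± 2.0 for SUPT6H, 34.3 ± 0.89 for SUPT4H1, 27.6 ± 0.74 for SUPT16H, 26.4 ± 3.3 for ELL2, 21.5 ± 1.4 for AFF4 and 20.1 ± 0.87 for CDK9. LARP7 followed at 16.5 ± 0.64, HEXIM1 at 11.6 ± 0.35, CCNT1 at 6.70 ± 0.31 and CCNT2 at 5.32 ± 0.49 (SD, n = 8). The cyclins that CDK9 needs were the lowest of the set on this scale. The libraries of SUPT16H and ELL2, of ELL2 and AFF4, and of AFF4 and CDK9 overlapped, whereas the other neighbours in this order did not.

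**Figure D1:**
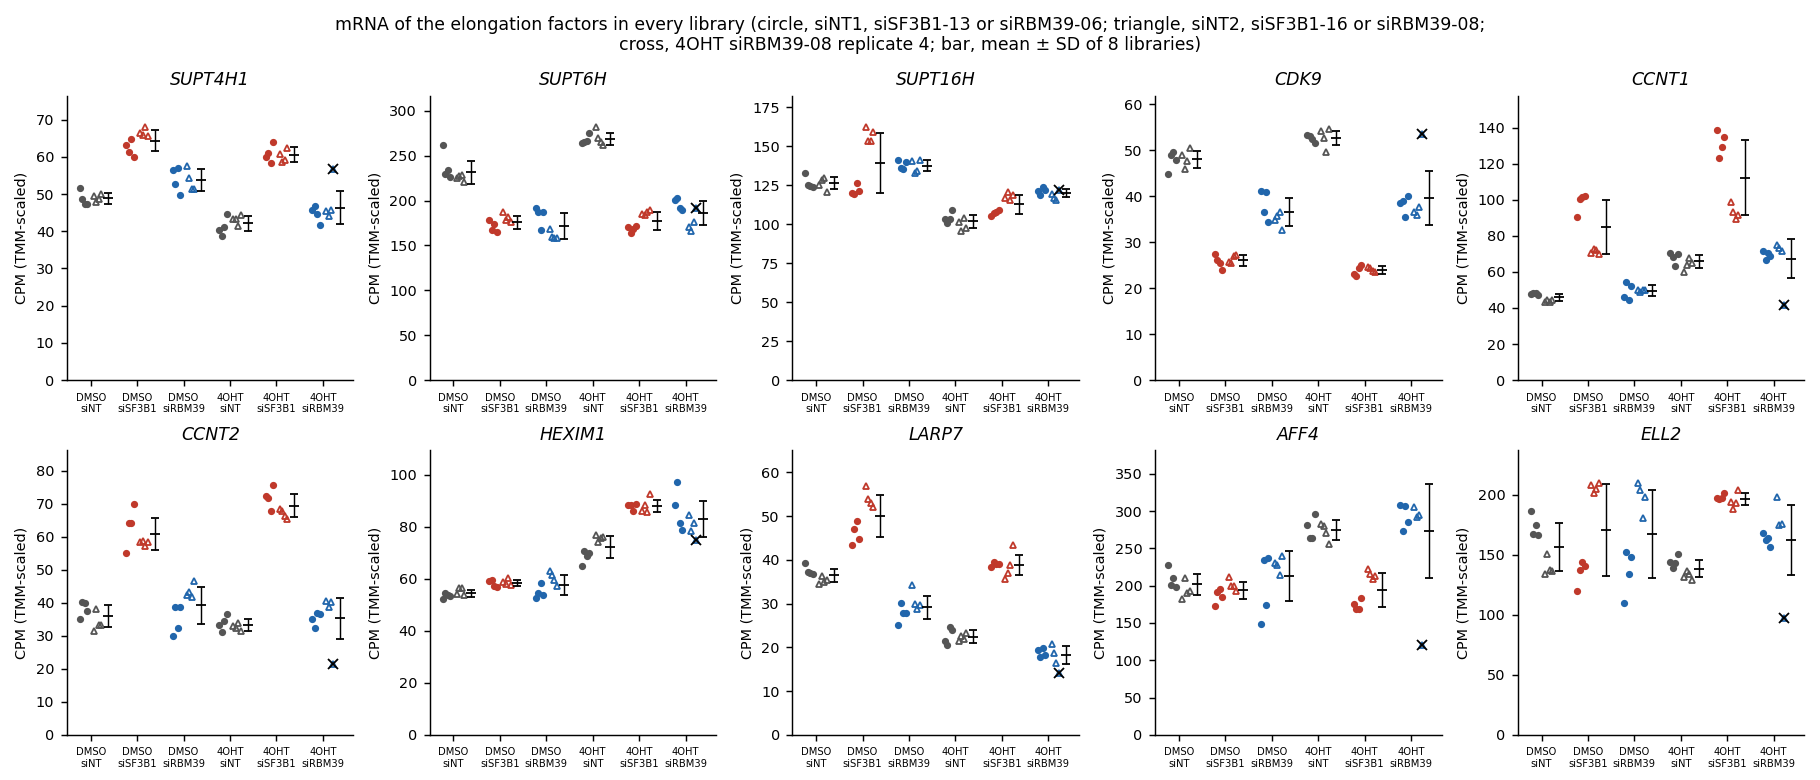
CPM (TMM-scaled, linear axis from 0) of each of the 10 genes in all 48 libraries, by group; circles are the first siRNA of a target, triangles the second, the cross is 4OHT siRBM39-08 replicate 4, and the bar beside each group is the mean ± SD of its 8 libraries. CDK9 lay at 22.6 to 27.5 CPM in all 16 siSF3B1 libraries, below every other library, while CCNT2 lay at 55.2 to 75.7 CPM in the same libraries, above every other one.

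Loss of SF3B1 lowered the mRNA of the kinase subunit and raised that of both cyclins. CDK9 (chr9:130547958-130553071) lay between 44.8 and 50.5 CPM in DMSO siNT (median 48.4) and between 24 and 27.5 (median 26) in DMSO siSF3B1. With 4OHT it lay between 49.7 and 54.7 (median 52.8) with siNT and between 22.6 and 25 (median 24.1) with siSF3B1. The groups did not overlap under either treatment, and the spread within each was narrow. CDK9 fell 1.84-fold in DMSO (log2 fold change −0.88, SE 0.05, adjusted p = 1.77e-19) and 2.20-fold in 4OHT (−1.14, SE 0.05, adjusted p = 1.09e-23). As in all bulk RNA, less RNA in each cell and fewer cells that express the gene cannot be told apart.

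CCNT1 (chr12:49082241-49110781) rose 1.85-fold after siSF3B1 in DMSO (log2 fold change 0.89, SE 0.10, adjusted p = 2.1e-11) and 1.70-fold in 4OHT (0.77, SE 0.09, adjusted p = 7.08e-10). Its libraries ran from 43.3 to 48.3 CPM (median 45.8) in DMSO siNT and from 69.7 to 102 (median 81.3) in DMSO siSF3B1, and from 60.0 to 70.3 (median 66.1) in 4OHT siNT and from 89.6 to 138.5 (median 110.8) in 4OHT siSF3B1. In DMSO the siSF3B1-13 libraries lay at 98.4 ± 5.6 CPM and the siSF3B1-16 libraries at 71.1 ± 1.3 (SD, n = 4), with log2 fold changes of 1.09 and 0.62, and both were called. The siRNAs thus agreed in direction, and siSF3B1-13 gave the higher level.

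CCNT2 (chr2:135675805-135716912), the cyclin at the lowest level, rose 1.68-fold in DMSO (0.75, SE 0.08, adjusted p = 2.58e-11) and 2.09-fold in 4OHT (1.06, SE 0.08, adjusted p = 4.83e-16). It ran from 31.5 to 40.1 CPM (median 36.4) in DMSO siNT and from 55.2 to 70.1 (median 58.6) in DMSO siSF3B1. In 4OHT it ran from 31.3 to 36.7 (median 33.1) with siNT and from 65.3 to 75.7 (median 68.3) with siSF3B1, again with no overlap.

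The mRNA of LARP7 and HEXIM1, which encode proteins of the inhibitory 7SK complex, rose too after siSF3B1. LARP7 (chr4:113558233-113578852) ran from 34.5 to 39.4 CPM (median 36.6) in DMSO siNT, from 43.5 to 57.0 (median 50.5) in DMSO siSF3B1, from 20.5 to 24.7 (median 22.3) in 4OHT siNT and from 35.6 to 43.5 (median 38.9) in 4OHT siSF3B1. It rose 1.37-fold in DMSO (0.46, SE 0.06, adjusted p = 3.54e-09) and 1.73-fold in 4OHT (0.79, SE 0.06, adjusted p = 3.12e-16), with all 8 libraries above the controls in each. HEXIM1 (chr17:43225842-43229466), a gene with 1 exon and so with no splicing event listed, rose from 54.4 ± 1.5 to 58.4 ± 1.2 CPM in DMSO (log2 fold change 0.10, adjusted p = 0.0202) and from 72.2 ± 4.2 to 88.1 ± 2.3 in 4OHT (0.29, adjusted p = 1.81e-08). The DMSO call of HEXIM1 was lost without replicate 1, 3 or 4 (0.08 to 0.11, adjusted p between 0.0535 and 0.111), with siNT2 as the control (0.07, adjusted p = 0.196) and with siSF3B1-13 alone (0.09, adjusted p = 0.0692).

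Of the elongation factors proper, SUPT4H1 rose and SUPT6H fell. SUPT4H1 (chr17:56422536-56430454) ran from 47.2 to 51.7 CPM (median 48.6) in DMSO siNT and from 59.8 to 68.0 (median 65.1) in DMSO siSF3B1, and from 38.7 to 44.7 (median 42.3) and 58.3 to 64.1 (median 60.4) in the same groups with 4OHT. These are rises of 1.32-fold (0.40, SE 0.04, adjusted p = 1.26e-11) and 1.44-fold (0.52, SE 0.04, adjusted p = 2.02e-15). SUPT6H (chr17:26989216-27029697) went the other way, from 232 ± 13 to 176 ± 7.4 CPM in DMSO (−0.40, SE 0.04, adjusted p = 5.92e-11) and from 269 ± 6.6 to 177 ± 9.7 in 4OHT (−0.60, SE 0.04, adjusted p = 1.17e-16), with no overlap between the groups.

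SUPT16H (chr14:21819635-21852178) changed little after siSF3B1. It was called higher after siSF3B1 in DMSO (log2 fold change 0.14, SE 0.05, adjusted p = 0.00762) and likewise with 4OHT (0.15, SE 0.05, adjusted p = 0.00655), but in DMSO this came from 1 siRNA. The siSF3B1-16 libraries lay at 157 ± 4.4 CPM and the siSF3B1-13 libraries at 122 ± 3.1, beside 126 ± 3.8 with siNT, and siSF3B1-13 alone gave −0.06 (adjusted p = 0.0596). The 4OHT call was lost without replicate 1 (0.12, adjusted p = 0.0565) or replicate 2 (0.12, adjusted p = 0.0573), and with siNT1 as the control (0.09, adjusted p = 0.195).

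Of the super elongation complex, AFF4 fell and ELL2 rose after siSF3B1 in 4OHT, and neither was called in DMSO. AFF4 (chr5:132211087-132299326) was 202 ± 14 CPM with siNT and 194 ± 11 with siSF3B1 in DMSO, which did not pass the test (−0.06, SE 0.10, adjusted p = 0.625), and 274 ± 13 and 194 ± 23 in 4OHT, where it fell 1.41-fold (−0.50, SE 0.10, adjusted p = 3.92e-05). ELL2 (chr5:95220802-95297555) rose 1.42-fold in 4OHT (0.50, SE 0.12, adjusted p = 0.000123), from between 129 and 150.4 CPM to between 188 and 203.5. In DMSO its siRNAs disagreed, at 135 ± 11 CPM for siSF3B1-13 and 206 ± 3.6 for siSF3B1-16, and the controls did too, at 174 ± 9.2 for siNT1 and 139 ± 7.4 for siNT2. The joint value there (0.13, SE 0.11, adjusted p = 0.325) did not pass the test.

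In all, 6 of the 10 genes rose and 2 fell after siSF3B1 in DMSO, where 36.5% of the 9991 genes tested rose and 36.2% fell. In 4OHT 7 rose and 3 fell, beside 39.4% and 37.6% of all genes. The median log2 fold change of the 10 genes was 0.13 in DMSO and 0.40 in 4OHT, against 0.02 and 0.03 over all genes tested. With so many genes changed, a call by itself sets no gene of this list apart.

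**Figure D2:**
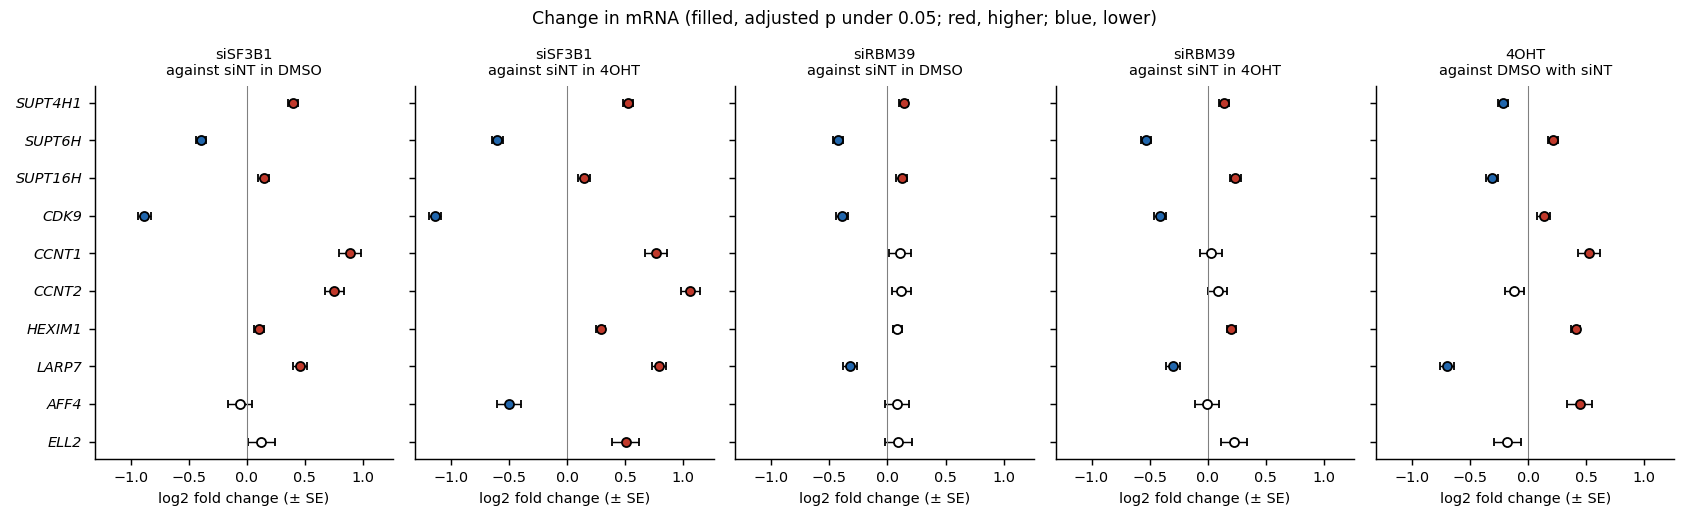
Log2 fold change with its SE (edgeR, horizontal axis) of each gene in the 5 comparisons with siNT or DMSO, filled red where the gene was higher and blue where it was lower at an adjusted p under 0.05, open where it did not pass. CDK9 lies at −0.88 and −1.14 after siSF3B1 and CCNT2 at 0.75 and 1.06, whereas the siRBM39 panels reach no further than −0.53 (SUPT6H).

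The siSF3B1 response itself differed between 4OHT and DMSO for 6 of the 10 genes, by a test of the interaction that called 37.8% of all genes. It was more positive with 4OHT for LARP7 (0.33, SE 0.08, adjusted p = 0.00135), CCNT2 (0.31, SE 0.11, adjusted p = 0.0293) and HEXIM1 (0.18, SE 0.06, adjusted p = 0.00937). It was more negative for AFF4 (−0.44, SE 0.15, adjusted p = 0.016), CDK9 (−0.26, SE 0.08, adjusted p = 0.0061) and SUPT6H (−0.20, SE 0.06, adjusted p = 0.00859). Apart from AFF4, these genes moved the same way under both treatments and further with 4OHT. These calls depend on the libraries used, since between 2 and 8 genes were called when 1 replicate number was left out, the fewest without replicate 3. All 6 were called with the first siSF3B1 siRNA alone, where LARP7 was 0.46. With the second alone LARP7 (0.20, adjusted p = 0.1), CCNT2 (0.30, adjusted p = 0.0731) and AFF4 (−0.37, adjusted p = 0.101) were not called. CDK9, SUPT6H and HEXIM1 were called with either siRNA. The difference for ELL2 (0.38, SE 0.16) had an adjusted p of 0.0612. Those for CCNT1, SUPT4H1 and SUPT16H had adjusted p of 0.53, 0.0922 and 0.989. The joint value for SUPT16H averages siRNAs called in opposite directions. It was 0.13 with the first alone (adjusted p = 0.00905) and −0.12 with the second (adjusted p = 0.0423). SUPT4H1 was called with the first alone (0.19, adjusted p = 0.00833) and not with the second (0.06, adjusted p = 0.613). CCNT1 was called with neither.

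After loss of RBM39 fewer of the 10 genes were called. In DMSO 2 genes rose and 3 fell, where 23.9% of all genes rose and 22.2% fell, and in 4OHT 3 rose and 3 fell, beside 32.2% and 24.3%. The siRBM39 comparisons share their control libraries with the siSF3B1 comparisons, so the values are set side by side and not correlated. SUPT6H fell from 232 ± 13 to 172 ± 14 CPM in DMSO (−0.43, SE 0.04, adjusted p = 3.38e-11) and from 269 ± 6.6 to 186 ± 14 in 4OHT (−0.53, SE 0.04, adjusted p = 3.05e-14). Set directly against each other, siSF3B1 and siRBM39 libraries differed for SUPT6H by 0.03 (SE 0.04, adjusted p = 0.555) in DMSO and by −0.07 (SE 0.04, adjusted p = 0.155) in 4OHT on the log2 scale. These values average pairs of siRNAs that differed from each other. In DMSO siSF3B1-13 lay below siRBM39-06 (−0.11, adjusted p = 0.0224) and siSF3B1-16 above siRBM39-08 (0.16, adjusted p = 0.00365), and in 4OHT the first pair gave −0.22 (adjusted p = 2.39e-05) and the second 0.07 (adjusted p = 0.2).

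CDK9 also fell after siRBM39, from 48 ± 1.9 to 36.6 ± 3.0 CPM in DMSO (−0.39, SE 0.05, adjusted p = 3.68e-08) and from 52.7 ± 1.6 to 39.6 ± 5.8 in 4OHT (−0.41, SE 0.05, adjusted p = 6.31e-09). Without the library that stood apart, where CDK9 was 53.5 CPM against 35.6 to 40 in the other 7, the 4OHT change was −0.49 (adjusted p = 7.2e-15). The fall was smaller than after siSF3B1, by 0.49 in DMSO and 0.72 in 4OHT on the log2 scale, and both differences were called (adjusted p = 4.23e-11 and 1.99e-16).

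LARP7 is the gene whose direction split between the knockdowns. It rose after siSF3B1 and fell after siRBM39, to between 25.2 and 34.2 CPM (median 29.2) in DMSO (−0.32, SE 0.06, adjusted p = 1.63e-05) and to between 14.1 and 20.8 (median 18.6) in 4OHT (−0.30, SE 0.06, adjusted p = 3.95e-05). The lowest of these was the library that stood apart, and without it the 4OHT change was −0.26 (adjusted p = 0.000101). The siSF3B1 libraries lay above the siRBM39 libraries 1.71-fold in DMSO and 2.13-fold in 4OHT, with no overlap.

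The cyclins did not pass the test after siRBM39. CCNT1 differed by 0.11 (SE 0.10, adjusted p = 0.357) in DMSO and 0.03 (SE 0.09, adjusted p = 0.797) in 4OHT, and CCNT2 by 0.12 (SE 0.08, adjusted p = 0.234) and 0.08 (SE 0.08, adjusted p = 0.387). The DMSO value of CCNT2 averages siRNAs of opposite sign, of which only the second was called. The first siRBM39 siRNA alone gave −0.05 (adjusted p = 0.522) and the second 0.26 (adjusted p = 0.0193). Neither siRNA alone gave a call for CCNT1 in DMSO or for either cyclin in 4OHT. The library that stood apart was the lowest of its group for both cyclins. It held 41.4 CPM of CCNT1 against 66.8 to 74.8 in the rest and 21.6 CPM of CCNT2 against 32.3 to 40.7. Without it CCNT2 was called higher in 4OHT (0.16, adjusted p = 0.0327), and CCNT1 was not (0.11, adjusted p = 0.262).

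Small rises after siRBM39 were called for SUPT4H1 (0.14 in both treatments, adjusted p = 0.00591 and 0.00507) and for SUPT16H (0.12, adjusted p = 0.0322 in DMSO and 0.24, adjusted p = 5.64e-05 in 4OHT). HEXIM1 was called in 4OHT (0.20, adjusted p = 3.28e-05) and not in DMSO (0.08, adjusted p = 0.0845). Without replicate 1 of every siRNA SUPT4H1 lost its call in both treatments (0.13 and 0.12), and the DMSO call of SUPT16H was lost whichever replicate number was left out (0.10 to 0.14). Without the library that stood apart the 4OHT values were 0.09, 0.23 and 0.22, all called. AFF4 and ELL2 were not called after siRBM39, with values between −0.01 and 0.23. For ELL2 in DMSO the joint value of 0.09 averages siRNAs called in opposite directions, at −0.21 for siRBM39-06 (136 ± 19 CPM, adjusted p = 0.014) and 0.34 for siRBM39-08 (198 ± 13 CPM, adjusted p = 0.00826). In 4OHT they were 121 and 96.9 CPM in the library that stood apart, against 273 to 309 and 157 to 198 in the other 7, and without it ELL2 was called higher (0.31, adjusted p = 0.0109) and AFF4 was not (0.10, adjusted p = 0.194). No gene of the list had a siRBM39 response that differed between 4OHT and DMSO by edgeR, DESeq2 or limma-voom, where edgeR called 14.1% of all genes. By edgeR 1 gene, HEXIM1, had an unadjusted p under 0.05 (0.12, adjusted p = 0.167).

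Compared with each other, the knockdowns differed for 5 of the 10 genes in DMSO and 7 in 4OHT, where 67.7% and 71.4% of all genes differed. The 5 genes called in both were SUPT4H1, CCNT1, CCNT2 and LARP7, all higher with siSF3B1, and CDK9, which was lower. In 4OHT AFF4 was lower (−0.49, adjusted p = 5.34e-05) and ELL2 higher (0.28, adjusted p = 0.0287) with siSF3B1, and without the library that stood apart ELL2 lost its call (0.20, adjusted p = 0.0861).

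Activation of RAS by itself changed 8 of the 10 genes in the siNT libraries, 5 upward and 3 downward, where 39% of all genes rose and 39.1% fell. Between the same groups 5 of the 6 fibroblast markers lay below every DMSO siNT library in all 8 4OHT siNT libraries (VIM did not) and their sum went from between 50221 and 57449 to between 14283 and 15090 CPM, while the endothelial sum went from between 1.47 and 2.02 to between 3.21 and 4.31 CPM. The part of these shifts in the changes that follow was not tested. LARP7 fell most, from between 34.5 and 39.4 CPM in DMSO to between 20.5 and 24.7 in 4OHT (1.62-fold, log2 fold change −0.70, SE 0.06, adjusted p = 1.2e-14). HEXIM1, the other gene of the list for a 7SK protein, rose. It lay between 52.1 and 56.6 CPM in DMSO and between 64.9 and 77.0 in 4OHT (0.41, SE 0.04, adjusted p = 1.12e-12), and again no library overlapped. CCNT1 rose 1.44-fold (0.52, SE 0.10, adjusted p = 3.21e-06) and AFF4 1.36-fold (0.44, SE 0.10, adjusted p = 0.000176), both above every DMSO library.

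Smaller changes with 4OHT were a rise of SUPT6H (0.21, adjusted p = 2.69e-05) and of CDK9 (0.13, adjusted p = 0.0203), and falls of SUPT16H (−0.31, adjusted p = 1.69e-07) and SUPT4H1 (−0.21, adjusted p = 1.4e-05). CCNT2 (−0.12, adjusted p = 0.185) and ELL2 (−0.18, adjusted p = 0.156) did not pass. The median over the 10 genes was 0.01, and that over all genes −0.00. The CDK9 call was lost without replicate 1 (0.13, adjusted p = 0.0823) or replicate 2 (0.13, adjusted p = 0.101).

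LARP7 also spanned the widest range of group means, 1.44 on the log2 CPM scale. The genes whose log2 CPM followed it most closely over the 48 libraries were POT1 (Pearson r = 0.956), a telomere-binding protein, RAD21 (0.953), a cohesin subunit, the gene listed as MYST2 (0.941), a histone acetyltransferase, SESN1 (0.938), a stress-response gene, and NAA16 (0.933), which encodes part of an N-terminal acetyltransferase. The libraries share their groups and scaling, so these values describe a likeness over the 6 groups and carry no test.

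The rest of the elongation machinery was represented by 36 further genes, of which 33 passed the filter. After siSF3B1 15 of the 33 rose and 8 fell in DMSO, where 36.5% and 36.2% of all genes did, and 14 rose and 10 fell in 4OHT, beside 39.4% and 37.6%. The median log2 fold change of the 33 was 0.14 and 0.06, against 0.02 and 0.03 over all genes. The 3 with the largest changes were the same in both and all fell. CTR9, a scaffold subunit of the PAF1 complex, went from 90.3 ± 1.9 to 25.7 ± 4.8 CPM in 4OHT (−1.81, SE 0.08, adjusted p = 1.16e-25) and from 87 ± 3.6 to 42.1 ± 5.0 in DMSO (−1.05, SE 0.07, adjusted p = 4.2e-17). WDR61, which belongs to the same complex, fell by 1.57 in 4OHT and 1.14 in DMSO on the log2 scale, and TCEA2, a tissue-restricted form of the transcript cleavage factor TFIIS, fell by 1.35 and 1.57.

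After siRBM39 6 of the 33 rose and 3 fell in DMSO, beside 23.9% and 22.2% of all genes, and 12 rose and 8 fell in 4OHT, beside 32.2% and 24.3%. Their medians were 0.02 and 0.08, against 0.02 and 0.05 over all genes. NELFCD, a subunit of the pausing factor NELF, fell from 60.1 ± 2.3 to 35 ± 1.1 CPM in DMSO (−0.78, SE 0.03, adjusted p = 7.32e-25) and from 72.1 ± 1.7 to 45.3 ± 2.1 in 4OHT (−0.67, SE 0.03, adjusted p = 1.11e-22). In DMSO WDR61 (0.48) and ELL (0.42), a relative of ELL2, rose. In 4OHT TCEB3, which encodes elongin A, fell (−0.67, and −0.59 without the library that stood apart). TCEB2, which encodes elongin B, was called higher (0.68, adjusted p = 0.007), but it was 406 CPM in the library that stood apart and 66.9 to 101 in the other 7, and without that library it was 0.14 with an adjusted p of 0.311.

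With RAS activation 14 of the 33 rose and 10 fell, beside 39% and 39.1% of all genes, with a median of 0.09 against −0.00. The largest were TCEA2, which fell from 15.2 ± 1.5 to 5.44 ± 0.30 CPM (−1.48, SE 0.15, adjusted p = 2.6e-12), EAF1, a partner of the ELL proteins, which rose from 29.5 ± 2.1 to 65.3 ± 3.0 (1.14, SE 0.05, adjusted p = 5.03e-25), and ELL, which rose from 22.5 ± 0.93 to 42.9 ± 2.1 (0.93, SE 0.06, adjusted p = 7.6e-20).

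Splicing was measured as percent spliced in (PSI), the share of corrected junction reads that include an exon or keep an intron. The tables list 249 events in 9 of the genes, and 217 of them have a PSI in every library. With the coverage score and the range of 5 points required in the planned fit, 16 events could be tested, 13 of them in SUPT6H. A second fit with no coverage minimum was therefore made, which was chosen after seeing the data. It held 91 events of the members among 70235 in all. Calls needed both an adjusted p below 0.05 and a PSI change of 5 points or more. Values rest on the read numbers given with most events as the range over the 48 libraries, often below 30, so a PSI of 0 or 100 in single libraries is imprecise.

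In the second fit 12 of the 91 events were called after siSF3B1 in DMSO and 24 in 4OHT, where 14.8% and 19% of all events were called. Cassette exons were mostly skipped, with 9 lower and 1 higher in DMSO and 14 lower and 1 higher in 4OHT, and the introns called, 2 in DMSO and 9 in 4OHT, were all retained more. After siRBM39 3 events were called in DMSO and 2 in 4OHT, beside 3.38% and 3.87% of all events, and all 5 were lower inclusion of cassette exons (2 of LARP7 and 1 of AFF4 in DMSO, 1 each of SUPT4H1 and ELL2 in 4OHT). None of the 91 was called by limma for 4OHT against DMSO with siNT, where 0.256% of all events were and 2 of the 91 had an unadjusted p under 0.05. None was called for a knockdown effect that differed between treatments, with 10 at an unadjusted p under 0.05 for siSF3B1 and 0 for siRBM39. Between the knockdowns 12 events differed in DMSO and 20 in 4OHT, beside 12.1% and 15.3%. With the coverage minimum, 2 introns of SUPT6H were called after siSF3B1 in 4OHT, beside 23% of all events tested that way.

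The 56-nt exon of SUPT4H1, the first sequence shown, went from nearly always included to mostly skipped. Its PSI ran from 68.9 to 98.0 (median 90.7) in DMSO siNT and from 13.6 to 36.8 (median 24.1) in DMSO siSF3B1. With 4OHT it ran from 73.8 to 100 (median 93.5) with siNT and from 18.8 to 40.8 (median 24) with siSF3B1. The groups did not overlap, and the means differed by −65.2 points in DMSO (adjusted p = 1.89e-11) and −63.7 points with 4OHT (adjusted p = 2.47e-12). An exact permutation test over the 8 against 8 libraries gave 0.000155 in each, the smallest p it allows.

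The change lay in the skipping reads. The median number of corrected reads that included this exon was 22.6 in DMSO siNT and 20.4 in DMSO siSF3B1, while the reads that skipped it went from 2.59 to 70.0. In 4OHT the included reads were 19.3 and 22.4 and the skipping reads 1.14 and 68.7. In single libraries the skipping reads ran from 35.4 to 89.2 with siSF3B1 and from 0 to 10.6 in the other 32, so skipping reads were more numerous while those that include the exon covered a like range. After siRBM39 the mean PSI was 80.5 ± 10.2 in DMSO, which was not called, and 75.7 ± 9.1 in 4OHT (−15.8 points, adjusted p = 0.00291, and −16.4 without the library that stood apart). That call was lost when replicate 4 of every siRNA was left out (−12.6 points, adjusted p = 0.142) and with siRBM39-08 alone (−14.0 points, adjusted p = 0.141).

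**Figure D3:**
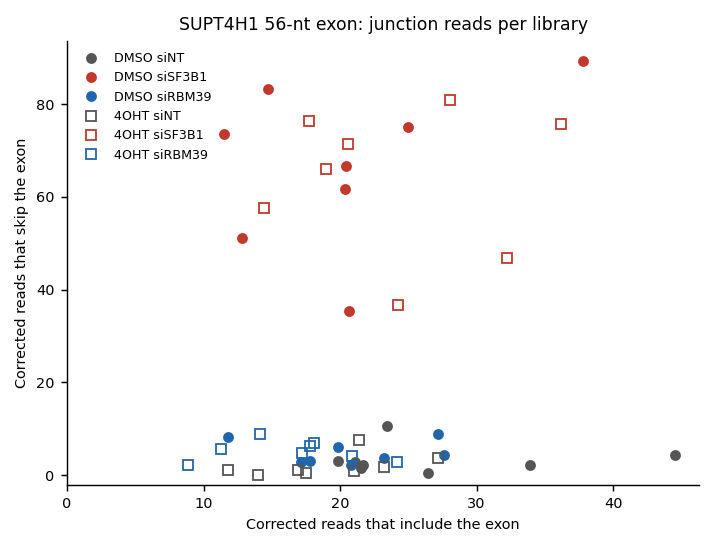
Corrected junction reads that include (horizontal axis) and skip (vertical axis) the 56-nt SUPT4H1 exon, 1 point per library, filled circles for DMSO and open squares for 4OHT. The 16 siSF3B1 libraries lie at 35.4 to 89.2 skipping reads and the other 32 at no more than 10.6, while their including reads (11.5 to 37.8 and 8.84 to 44.5) cover the same range.

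In both cyclins the 71-nt exons, alike in 55 of 71 bases, were skipped after siSF3B1. In CCNT2 the exon had a PSI of 100 in all 16 siNT libraries. After siSF3B1 it ran from 49.3 to 79.6 (median 66.1) in DMSO and from 48.4 to 75.6 (median 54.1) in 4OHT, differences of −35 (adjusted p = 1.2e-14) and −41.9 points (adjusted p = 7.78e-16). In CCNT1 it was 98.9 ± 3.2 with siNT and 80.7 ± 11.8 with siSF3B1 in DMSO (−18.2 points, adjusted p = 1.73e-05), and 100 in every siNT library and 72.0 ± 9.4 with siSF3B1 in 4OHT (−28.0 points, adjusted p = 1.35e-08). The groups overlapped for CCNT1 in DMSO and not in 4OHT. After siRBM39 both stayed between 95.8 and 99.0 on average, and neither was called. Reads per library ran from 2 to 49 for the CCNT2 exon and from 6 to 70 for that of CCNT1.

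The 63-nt exons, also paired between the cyclins, had a PSI of 100 in all siNT libraries of both genes. With siSF3B1 in 4OHT the mean was 65.1 ± 13.1 in CCNT2 (−34.9 points, adjusted p = 2.66e-10) and 88.6 ± 9.4 in CCNT1 (−11.4 points, adjusted p = 5.53e-07). In DMSO it was 90.3 ± 11.4 in CCNT2 (−9.7 points, adjusted p = 0.0043, with the groups overlapping and an exact permutation p of 0.0769) and 96.8 ± 6.1 in CCNT1, which was not called. A 46-nt exon of CCNT1 (chr12:49091921-49091966) went from 100 in every siNT library to 93.1 ± 6.6 in DMSO (−6.9 points, adjusted p = 5.52e-05) and 75.5 ± 10.6 in 4OHT (−24.5 points, adjusted p = 6.52e-13). For each of these exons the mean was lower in 4OHT siSF3B1 than in DMSO siSF3B1, but no difference between treatments in the siSF3B1 effect was called. Reads per library ran from 4 to 23 for the CCNT2 63-nt exon, from 1 to 84 for that of CCNT1 and from 1 to 74 for the 46-nt exon. With siSF3B1-13 alone the CCNT2 63-nt exon was not called in DMSO (−7.5 points, adjusted p = 0.219). A 164-nt exon of CCNT1 had a PSI in only 7 of the 8 DMSO siRBM39 libraries and so was not tested. It was 72.8 ± 28.4 with siNT and 27.1 ± 7.8 with siSF3B1 in DMSO, and 84.1 ± 18.1 and 33.3 ± 19.3 in 4OHT, on 0 to 28 reads per library.

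One CCNT2 exon went the other way. An 87-nt exon (chr2:135703459-135703545), found in 2 annotated transcripts and coding over its whole length in none, was nearly absent from control cells. It was at 2.2 ± 4.6 in the DMSO siNT libraries and 3.7 ± 5.5 in those of 4OHT siNT. The exon reached 43.4 ± 17.2 in DMSO siSF3B1 (between 24.6 and 83.3, 41.3 points higher, adjusted p = 1.59e-07) and 28.2 ± 5.5 in 4OHT siSF3B1 (between 22.2 and 38.5, 24.6 points higher, adjusted p = 4.58e-05). The libraries did not overlap with the controls. With siRBM39 it was 9.2 ± 4.2 and 7.5 ± 12.1, and was not called. These values rest on 3 to 28 reads per library, and on 3 to 14 in DMSO siNT.

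In LARP7 both exons described here were called after both knockdowns in DMSO. An exon was also called after each knockdown in SUPT4H1 (above) and in AFF4, whose exon differed by −8.9 points after siSF3B1 in 4OHT and −5.6 after siRBM39 in DMSO. The LARP7 152-nt exon (13 to 90 reads per library), at 96.9 ± 2.8 in DMSO siNT, was 80.4 ± 10.4 with siSF3B1 (−16.5 points, adjusted p = 0.00355) and 84.3 ± 7.4 with siRBM39 (−12.6 points, adjusted p = 0.0304). In 4OHT it was 95.6 ± 9.8 with siNT, 68.2 ± 11.1 with siSF3B1 (−27.4 points, adjusted p = 3.82e-06) and 87.1 ± 9.9 with siRBM39. The last was called only without the library that stood apart (−10.4 points, adjusted p = 0.0163). The 139-nt exon before it (7 to 49 reads) followed the same order, at 96.5 ± 5.2, 75.6 ± 12.1 and 81.6 ± 8.5 in DMSO and 92.9 ± 15.4, 58.3 ± 11.5 and 87.7 ± 11.1 in 4OHT, and was called in the same comparisons. Groups overlapped in all of these. In DMSO the siRBM39 calls of both exons were lost with either siRNA alone and without replicate 1 (−13 points for the 139-nt and −11.1 for the 152-nt exon) or replicate 3 (−15.6 and −12.9), and the siSF3B1 call of the 152-nt exon without replicate 4 (−13.6 points, adjusted p = 0.0652). With siSF3B1-16 alone neither exon was called in DMSO (adjusted p = 0.0525 for the 139-nt and 0.114 for the 152-nt exon). Thus LARP7 counts rose after siSF3B1 and fell after siRBM39, while inclusion of these exons was lower after both in DMSO.

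**Figure D4:**
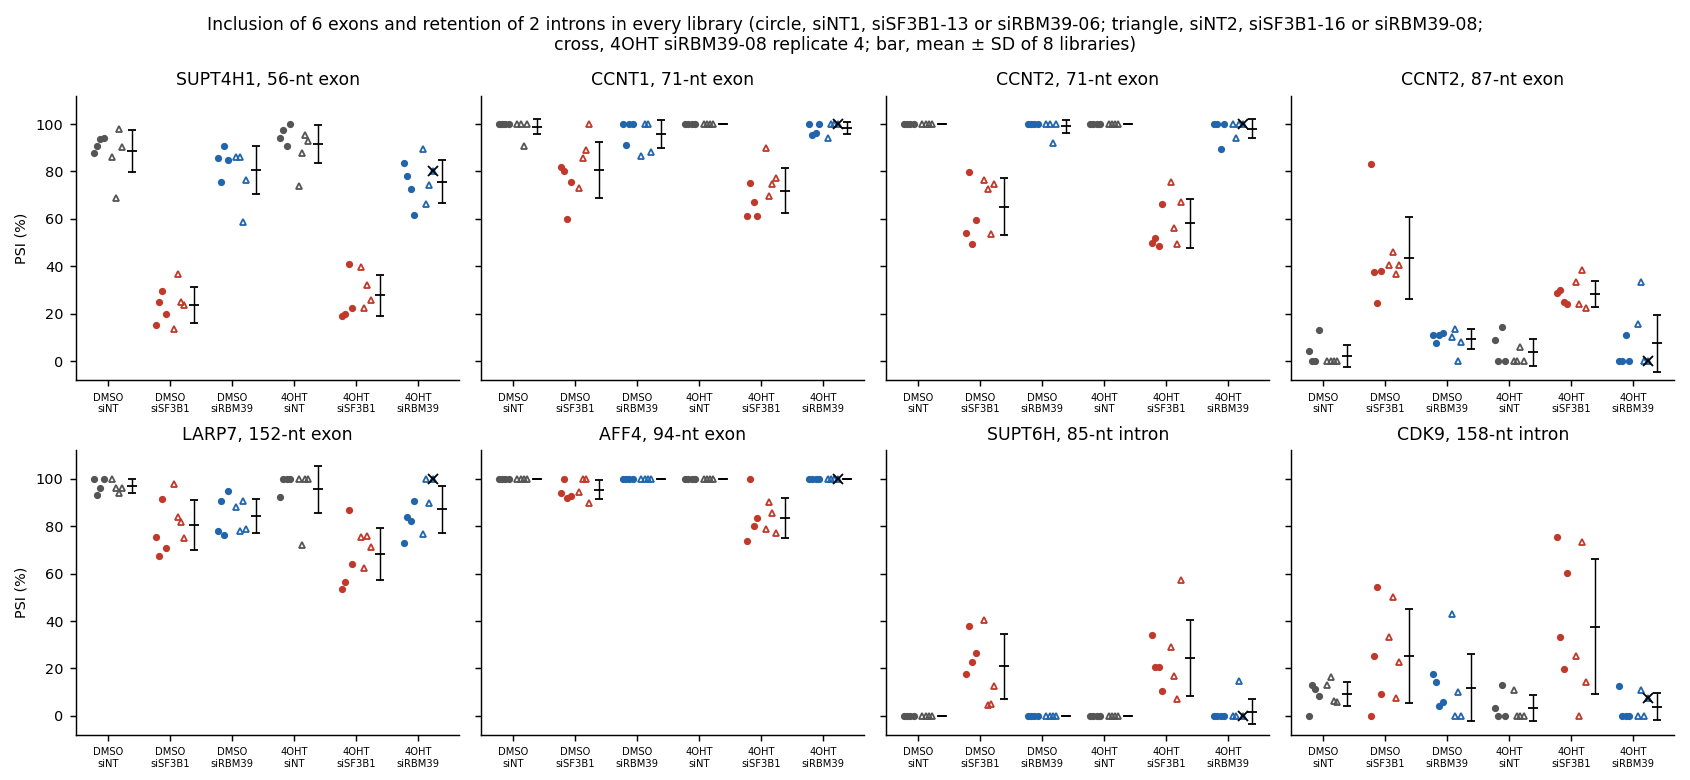
PSI (percent) of 6 exons and 2 introns in all 48 libraries by group, with circles for the first siRNA of a target, triangles for the second, a cross for 4OHT siRBM39-08 replicate 4 and a bar for the mean ± SD of 8 libraries, which can pass 0 or 100. The SUPT4H1 exon falls from 88.8 and 91.5 with siNT to 23.6 and 27.8 with siSF3B1, while the CDK9 intron spreads from 0 to 75.4 within 4OHT siSF3B1.

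Of the 21 tested events of AFF4 3 were called after siSF3B1 in DMSO and 7 in 4OHT, where 14.8% and 19% of all events were called, and 1 after siRBM39 in DMSO, beside 3.38%. These are 8 events, 6 exons and 2 introns, of which the 3 with the largest differences are given, on 11 to 83 reads per library for the 94-nt exon, 6 to 124 for the 84-nt exon and 12 to 56 for the intron. Its 94-nt exon (chr5:132222002-132222095), at 100 in every siNT library, was 95.4 ± 4.1 with siSF3B1 in DMSO, under the minimum of 5 points, and 83.6 ± 8.4 in 4OHT (−16.4 points, adjusted p = 3.68e-09). An 84-nt exon was 88.3 ± 4.4 with siSF3B1 in DMSO against 99.2 ± 1.6 (−10.8 points, adjusted p = 3.86e-07) and 83.0 ± 7.4 in 4OHT against 98.3 ± 2.0 (−15.3 points, adjusted p = 2.14e-07), with no overlap in either. The 1117-nt intron next to the 94-nt exon (chr5:132222096-132223212) went from 2.5 ± 4.3 to 8.3 ± 5.6 in DMSO (5.8 points, adjusted p = 0.0143) and from 2.0 ± 1.5 to 13.4 ± 6.2 in 4OHT (11.4 points, adjusted p = 0.000574). The DMSO call of the intron was lost without replicate 1, 3 or 4 (4.0 to 6.7 points).

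SUPT6H and CDK9, whose counts fell after siSF3B1 under both treatments, had introns called as retained, those of CDK9 in 4OHT alone. An intron of CCNT2, whose counts rose, was also called as retained more after siSF3B1 in 4OHT (28.4 points, adjusted p = 0.00279). Whether retention and the counts of these genes are linked was not tested. In SUPT6H the 85-nt intron shown above had no retaining read in the 16 siNT libraries and a PSI of 20.9 ± 13.7 in DMSO siSF3B1 (between 4.5 and 40.4, adjusted p = 2.47e-10) and 24.5 ± 16.0 in 4OHT siSF3B1 (between 7.2 and 57.5, adjusted p = 1.79e-11). The values of this intron rest on 2.06 to 19.6 corrected reads per library. The median number of retaining reads was 2.2 in DMSO siSF3B1 and 2.0 in 4OHT siSF3B1. Better covered was the 186-nt intron (chr17:27005653-27005838), with 38 to 148 reads in every library, which was 0.0 with siNT and 7.6 ± 3.7 with siSF3B1 in 4OHT (adjusted p = 3.43e-13 with the coverage minimum). The 4OHT call rests on siSF3B1-13, at 10.7 ± 1.8, since siSF3B1-16 at 4.55 ± 1.9 was under the minimum of 5 points (adjusted p = 1.21e-07). In DMSO it was 4.3 points higher, under the minimum difference. The 520-nt intron (20.6 to 70 reads per library) was 6.1 points higher in 4OHT, siSF3B1-16 alone gave 1.1 points (adjusted p = 0.16), and without replicate 4 the difference was 3.8 points. After siRBM39, which also lowered SUPT6H counts, these 3 introns stayed between 0 and 1.8 on average and none was called.

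In CDK9 3 introns were called after siSF3B1 in 4OHT and none in DMSO. The 158-nt intron was 3.4 ± 5.5 in 4OHT siNT and 37.7 ± 28.5 in 4OHT siSF3B1 (34.3 points, adjusted p = 0.00105), and 9.2 ± 5.2 and 25.3 ± 19.8 in DMSO (adjusted p = 0.385). It rests on only 2 to 30 reads per library, and the siSF3B1 libraries ran from 0 to 75.4. With siSF3B1-16 alone it was not called (24.8 points, adjusted p = 0.0796). The 460-nt intron (chr9:130548520-130548979) went from 2.9 ± 4.8 to 16.1 ± 12 in 4OHT (adjusted p = 0.00785) and the 485-nt intron (chr9:130550972-130551456) from 1.1 ± 1.2 to 6.9 ± 5.8 (adjusted p = 0.023), both with overlapping groups and both losing the call without replicate 2 (10.1 and 5.5 points). By siRNA the 485-nt intron was 3.5 ± 3.5 with siSF3B1-13, which was not called alone (2.3 points, adjusted p = 0.488), and 10.3 ± 5.9 with siSF3B1-16, and the 460-nt intron was not called with siSF3B1-13 alone (11.6 points, adjusted p = 0.0738). After siRBM39 in 4OHT the 158-nt, 460-nt and 485-nt introns were 3.9 ± 5.6, 0.96 ± 2.7 and 5.6 ± 3.9, none of them called, and siSF3B1 and siRBM39 libraries did not differ by the test for the 485-nt intron (1.2 points, adjusted p = 0.962). The 460-nt intron rests on 2 to 34 reads per library and the 485-nt intron on 9 to 51. Whether retention and the lower CDK9 counts are linked was not tested.

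ELL2 had 1 event called. Its 50-nt exon, with 3 to 35 reads per library, was low throughout, at 11.7 ± 12.6 in 4OHT siNT, and no library with siRBM39 under either treatment held a read that included it (−11.7 points in 4OHT, adjusted p = 0.000165). The 4OHT siNT libraries ran from 0 to 31.95 (median 6.57) and held a median of only 0.5 including reads. In DMSO siNT the exon was 4.1 ± 5.7, and the difference there was not called. The 9 tested events of SUPT16H held no call by limma, though 2 had an unadjusted p under 0.05 in at least 1 of the 5 comparisons with siNT or DMSO. The 7 called events beyond the 3 largest of each gene, 5 in AFF4 and 2 in CCNT2, were each called after siSF3B1. Their largest differences ranged from −10.0 points for an AFF4 exon to 28.4 points for the CCNT2 intron named above.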

How the data were processed

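Poly(A)-selected RNA of 48 libraries was sequenced (kit for mRNA capture, per the labels). The authors ran vast-tools and deposited 3 tables used here: read counts per gene, cRPKM (RPKM corrected for mappability), and PSI as percent with a coverage score, corrected reads and, for introns, a balance p-value per event. The submitters' notes name hg19, edgeR and limma. Event coordinates in the deposited PSI table were not those of hg19, so events were placed in GRCh37 by matching exon and intron lengths, and no coordinate was converted. The authors' table of normalised, filtered CPM values was not used, and 0 columns of values lacked a sample.

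Genes with at least 10000 counts in all (9991 of 19509 with counts, 19847 listed) were scaled by TMM and tested with edgeR 4.0.16 (quasi-likelihood, 6 group means, Benjamini-Hochberg, adjusted p under 0.05) in R 4.3.3. PSI was tested with limma 3.58.1 on the logit of 0.01 + 0.98 × fraction, for 13839 of 363278 events with a PSI and a score of at least VLOW in every library, a range of at least 5 points and, where the event is an intron, balanced junction reads (p not under 0.05). A call needed an adjusted p under 0.05 and 5 points. The second fit dropped the score and was chosen after seeing the data. Exact permutation tests were two-sided. Both steps were tested on simulated data. DESeq2 1.42.0 and limma-voom served as alternatives, and Python 3.11.15 for the rest.

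All 10 genes are named, with up to 3 called events each by size of difference, the 3 largest called changes per comparison in a list of other elongation genes, and the 5 genes most like the member with the widest span. The members and lists were chosen with earlier results of these data known. No 2 replicates agreed within sampling noise (lowest chi-square per degree of freedom 2.00 over 72 pairs). Counting precision follows the depth of 31467221 to 52734636 counts per library, and for PSI the reads given.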

Additional observations from a re-analysis of the deposited data

Results flagged for a closer look

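In each group of 8 libraries the highest or lowest library was compared with the rest by Dixon's criterion at the 95% level, for the CPM of the 10 genes and the PSI of the named events. Of 174 groups 32 held such a library, 8 for CPM and 24 for PSI. Chance gives about 1 in 20 for normally distributed values. That rate does not hold for PSI, which piles up at 0 or 100 on few reads, so the number of far PSI values cannot be set against it. In several of these PSI groups every other library was at exactly 0 or 100.

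Of the 8 for CPM, 6 were 4OHT siRBM39-08 replicate 4, the library that stood apart over all genes. It was the highest of its group for SUPT4H1 (56.7 CPM) and CDK9 (53.5) and the lowest for CCNT1 (41.4), CCNT2 (21.6), AFF4 (121) and ELL2 (96.9). The other 2 were SUPT6H in DMSO siNT1 replicate 1 (262 CPM) and HEXIM1 in 4OHT siSF3B1-16 replicate 4 (92.7 CPM), each the highest of its group.

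Far PSI values in control libraries were 68.9 (DMSO siNT2 replicate 2) and 73.8 (4OHT siNT2 replicate 1) for the SUPT4H1 exon, 90.9 for the CCNT1 71-nt exon (DMSO siNT2 replicate 3), 13.0 for the CCNT2 87-nt exon (DMSO siNT1 replicate 4), and 56.5 and 72.2 for the LARP7 139-nt and 152-nt exons, both in 4OHT siNT2 replicate 2. For introns they were 0.53 (SUPT6H 186-nt, DMSO siNT1 replicate 4), 0.88 and 1.1 (SUPT6H 520-nt, DMSO and 4OHT siNT1 replicate 1), 14.3 (CDK9 460-nt, 4OHT siNT2 replicate 3) and 12.2 (AFF4 1117-nt, DMSO siNT1 replicate 2).

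After siSF3B1 the CCNT2 87-nt exon stood at 83.3 in DMSO siSF3B1-13 replicate 1. After siRBM39 in DMSO the far values were 58.9 for the SUPT4H1 exon, 91.9 for the CCNT2 71-nt exon and 0 for the CCNT2 87-nt exon, all in siRBM39-08 replicate 3, together with 63.6 for the LARP7 139-nt exon (siRBM39-08 replicate 2), 43.1 for the CDK9 158-nt intron (siRBM39-08 replicate 1) and 6.12 for the AFF4 intron (siRBM39-08 replicate 4). After siRBM39 in 4OHT they were 14.7 for the SUPT6H 85-nt intron (siRBM39-08 replicate 3), 4.11 and 13.0 for the SUPT6H 186-nt and AFF4 introns (siRBM39-08 replicate 4), 7.69 and 33.3 for the CDK9 460-nt intron and the CCNT2 87-nt exon (siRBM39-08 replicate 2) and 81.8 for the CCNT2 63-nt exon (siRBM39-06 replicate 4).

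The siSF3B1 response differed between 4OHT and DMSO by edgeR's interaction test for 6 genes, with log2 differences of −0.20 for SUPT6H, −0.26 for CDK9, 0.31 for CCNT2, 0.18 for HEXIM1, 0.33 for LARP7 and −0.44 for AFF4. Standard errors and adjusted p-values are given with the comparison.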

How the results depend on the processing

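Under the alternatives tried, 1256 values of single genes kept direction and call, 54 lost the call, 34 gained one and 6 changed sign. With siSF3B1-13 and siRBM39-06 alone SUPT16H in siSF3B1 against siNT in DMSO was −0.062 and against siRBM39 −0.19, SUPT6H against siRBM39 in DMSO −0.11, and ELL2 in DMSO −0.22 for siSF3B1 and −0.21 for siRBM39. With siSF3B1-16 alone the SUPT16H difference between treatments was −0.12. Some values called in neither fit changed sign too, such as CCNT2 after siRBM39 in DMSO (0.12, and −0.05 with siRBM39-06 alone). Of single events 1031 kept their call or lack of one, 42 lost a call and 12 gained one. The causes were not tested.

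The genes called after siRBM39 in DMSO were 5, with 3 by siNT2 alone, 8 by siRBM39-08 alone and 3 to 5 with a replicate number left out. The siSF3B1 effect that differed between treatments was called for 6 genes, 3 by siNT1 alone, 2 by siNT2 alone and 2 to 8 with a replicate left out, and that of siRBM39 for 0, or 3 by siRBM39-06 alone. Of the 33 other elongation genes 9 were called after siRBM39 in DMSO, 21 by siRBM39-06 alone and 6 to 17 with libraries left out, the most without 4OHT siRBM39-08 replicate 4. In 4OHT 20 were called, 13 with only the groups compared and 10 with siNT1 or siNT2 alone. For the siSF3B1 effect 10 were called, 17 with only the groups compared and 18 by siSF3B1-13 alone. For the siRBM39 effect 1 was called, 4 by DESeq2, 2 by limma-voom, 3 with only the groups compared, 0 with every gene of at least 1 count or with siNT1 or siNT2 alone, 13 by siRBM39-06 alone, 6 by siRBM39-08 alone and 0 to 5 with libraries left out.

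With the coverage minimum, 0 events were called after siSF3B1 in DMSO, 12 with no coverage minimum, 9 with no minimum difference, 3 by siSF3B1-13 alone and 0 to 1 with a replicate left out. In 4OHT 2 were called, 0 at 10 points, 24 with no coverage minimum, 10 with no minimum difference, 4 and 1 by siSF3B1-13 and siSF3B1-16 alone and 1 to 3 with a replicate left out. After siRBM39 0 were called by limma in DMSO (3 at an unadjusted p under 0.05), 1 without the balance filter, with no minimum difference or by siRBM39-08 alone, and 3 with no coverage minimum, and 0 in 4OHT (1 unadjusted), 1 without the balance filter and 2 with no coverage minimum. Between the knockdowns 0 were called in DMSO, 12 with no coverage minimum, 7 with no minimum difference, 3 by siSF3B1-13 and siRBM39-06 alone and 0 to 1 with a replicate left out, and 2 in 4OHT, 0 at 10 points, 20 with no coverage minimum, 8 with no minimum difference, 1 by the second siRNAs alone and 1 to 3 with a replicate left out. The siSF3B1 effect gave 2 by siSF3B1-13 alone.

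With no coverage minimum, 12 events after siSF3B1 in DMSO became 27 with no minimum difference and 19 by siSF3B1-13 alone, and 24 in 4OHT became 39. The 3 after siRBM39 in DMSO became 1 with siNT1 or siRBM39-08 alone, 0 by siRBM39-06 alone and 0 to 3 with a replicate left out, and the 2 in 4OHT became 1 with siNT2 alone and 1 to 3 with a replicate left out. Between the knockdowns the 12 in DMSO became 7 at 10 points, 23 with no minimum difference and 5 by the second siRNAs alone, and the 20 in 4OHT became 31. The siSF3B1 effect gave 3 by either siRNA alone and 0 to 1 with a replicate left out.

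Replicate numbers did not pair the libraries (median correlation of deviations 0.0104 over 264 same-number pairs, 84 of them over 0.1). With the replicate block 8 and 10 genes were called after siSF3B1 in DMSO and 4OHT, as without it, and no count moved by over 1.5 times. Most events rest on fewer than 50 reads in a library, which limits PSI more than depth limits counts.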
